A study of Homo sapiens with 6 samples.

Results

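Wnt feedback targets are genes that beta-catenin switches on and whose products in turn set how strongly a cell hears Wnt. Their members here were the 8 genes SP5, AXIN2, LGR5, TCF7, LEF1, NKD1, RNF43 and ZNRF3, picked by symbol from the 57820 gene identifiers of a raw count table. They were measured in Cal27 cells, an established human cell line of tongue squamous carcinoma. The CRNN group (n = 2) carried the cornulin gene on a lentivirus, and the GFP group (n = 2) carried a GFP vector in the same kind of virus. Both were transduced with polybrene at 8 µg/ml and harvested after 48 h. The untreated group (n = 2) is labelled wild type, and neither polybrene nor a harvest time is given for it. A comparison with untreated cells therefore cannot tell the insert from the virus, the polybrene or the time. The labels call the libraries biological replicates of 1 batch without saying how separate the cultures were, so the p-values measure the spread between these libraries.

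In the canonical Wnt pathway, a Wnt ligand binds a Frizzled receptor with LRP5 or LRP6, which stops a destruction complex built on AXIN and APC from breaking down beta-catenin. Beta-catenin then enters the nucleus and works through the DNA-binding proteins TCF7, LEF1, TCF7L1 and TCF7L2. AXIN2, NKD1, RNF43, ZNRF3 and LGR5 are widely used as readouts of this step, since their own expression rises with it in many tissues and feeds back on the pathway.

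The 6 libraries held between 11817105 and 28041227 counts, and 3 counts corresponded to between 0.115 and 0.239 CPM (counts relative to the library size as scaled by TMM). CRNN itself had a log2 fold change of 8.46 over GFP cells and 8.47 over untreated cells (SE 0.43 for each; edgeR, adjusted p = 2.24e-04 and 2.11e-04). Squamous markers were abundant: the 10 genes of that list summed to between 4200 and 6285 CPM in every library. Of markers of other cells, 8 fibroblast genes summed to between 4.04 and 9.50 CPM and 8 immune genes to between 5.92 and 9.52 CPM. Endothelial markers (4 genes) summed to between 8.15 and 14.0 CPM in 5 libraries and to 53.0 CPM in untreated replicate 1, of which CDH5 gave 49.9 CPM. Genes of the mitochondrial genome, rRNAs included, took 25.6% to 29.3% of counts in the transduced libraries and 22.5% and 25.8% in the untreated ones. Its 13 mRNAs summed to 10461 and 6194 CPM in CRNN, 15097 and 11933 CPM in GFP, and 10117 and 12346 CPM in untreated cells. All 13 were lower in CRNN than in GFP (median log2 fold change -1.05, 9 at an unadjusted p under 0.05 by edgeR), and all 13 were higher in GFP than in untreated cells (median 0.70, 1 under it). None of the 13 passed.

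The feedback targets differed widely in level. RNF43, ZNRF3, TCF7 and LEF1 were expressed at 2.91 to 15.8 CPM in every library, SP5 and NKD1 were below 2 CPM, and AXIN2 and LGR5 had 6 and 0 counts in the whole series. None of them passed in any comparison. SP5 stood about 3-fold higher in both transduced groups than in untreated cells, on few counts, and the members that were well counted stayed within 2-fold across all 6 libraries.

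LGR5, the receptor for R-spondins that marks stem cells of the intestine (ENSG00000139292.8; GRCh38 chromosome 12, 71439798 to 71586310, plus strand), had 0 counts in all 6 libraries. Over the 128458597 counts of the series this allows up to 0.0235 CPM. AXIN2, the inducible scaffold of the destruction complex and the most used Wnt readout (ENSG00000168646.8; chromosome 17, 65528563 to 65561648, minus strand), had 0 and 1 counts with CRNN, 2 and 2 with GFP, and 1 and 0 without virus. These 6 counts in all lie under the limit of 3 counts in each library, so no fold change is given. The canonical AXIN2 transcript has 4260 nt. In GENCODE 44 a gene on the same strand, ENSG00000266076, shares 1316 nt of exon sequence with AXIN2, counted over all AXIN2 transcripts. That gene also had 0 counts in every library, and whether reads shared by both genes were dropped is not given in the sources used here. AXIN2 and LGR5 did not pass the filter on low counts, which left 6 tested members.

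SP5 encodes a zinc finger factor of the Sp family, a direct target of beta-catenin that acts mostly as a repressor (ENSG00000204335.3; chromosome 2, 170715337 to 170718078, plus strand). Its counts were 37 and 44 with CRNN, 33 and 19 with GFP, and 14 and 15 without virus. As CPM these were 1.68 and 1.96, 1.71 and 1.52, and 0.535 and 0.601. Every transduced library lay above both untreated libraries, while the CRNN and GFP libraries overlapped. Of all genes tested, 11.2% were split between transduced and untreated libraries in this way, in either direction. The group levels were 1.82 CPM ± 0.201 (SD, n = 2), 1.62 ± 0.140 (SD, n = 2) and 0.568 ± 0.0465 (SD, n = 2). The exact Poisson 95% interval, which covers counting error only, ran from 1.43 to 2.63 CPM in CRNN replicate 2 and from 0.913 to 2.37 in GFP replicate 2. It ran from 0.292 to 0.897 in untreated replicate 1 and from 0.336 to 0.990 in untreated replicate 2.

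**Figure D1:**
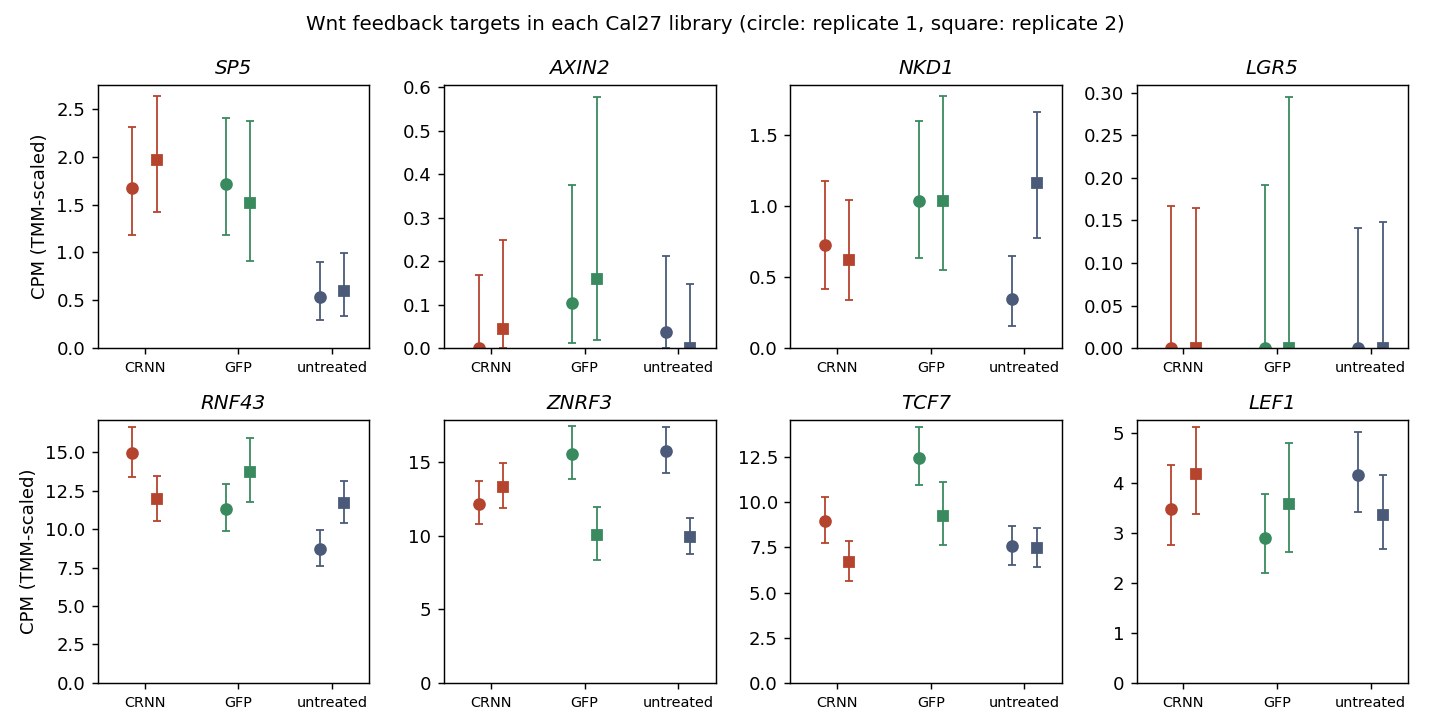
Level of the 8 Wnt feedback targets in each library, in CPM (y axis, from 0, own scale per gene) by group (x axis); circles are replicate 1, squares replicate 2, and bars are exact Poisson 95% intervals of the count. SP5 lies between 1.52 and 1.96 CPM in the 4 transduced libraries and at 0.535 and 0.601 CPM in untreated cells, and LGR5 is at 0 throughout.

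SP5 had a log2 fold change of 1.67 in CRNN against untreated cells (SE 0.43, 95% interval 0.70 to 2.64), which is 3.18-fold. In GFP against untreated cells it had 1.50 (SE 0.44, 0.51 to 2.50), or 2.84-fold. Neither passed over all genes (edgeR, adjusted p = 0.989 and 0.711). Both comparisons share the 2 untreated libraries, so they are not independent of each other. With the mean of the CRNN and GFP groups set against untreated cells, a contrast chosen after the counts were seen, SP5 had 1.59 (SE 0.39, adjusted p = 0.769). The 4 transduced libraries thus lay above the same 2 untreated ones, a split seen in 11.2% of all genes in either direction, and SP5 did not pass the test. Between CRNN and GFP its log2 fold change was 0.17, with a 95% interval from -0.76 to 1.09.

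The SP5 values depended little on the processing. Against untreated cells the log2 fold change lay between 1.54 and 1.80 for CRNN and between 1.39 and 1.61 for GFP under all 17 alternatives, and its smallest adjusted p was 0.0928 and 0.128, both without untreated replicate 2. Without untreated replicate 1, which stands apart in DKK1, MYC and FOSL1 (below), the values were 1.59 and 1.40. The canonical SP5 transcript has 66.3% GC, the highest of the members, and with offsets for GC content and transcript length the values were 1.68 and 1.39. The mitochondrial share of counts was higher than in both untreated libraries in 3 of the 4 transduced ones, and its part in the SP5 difference was not tested.

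**Figure D2:**
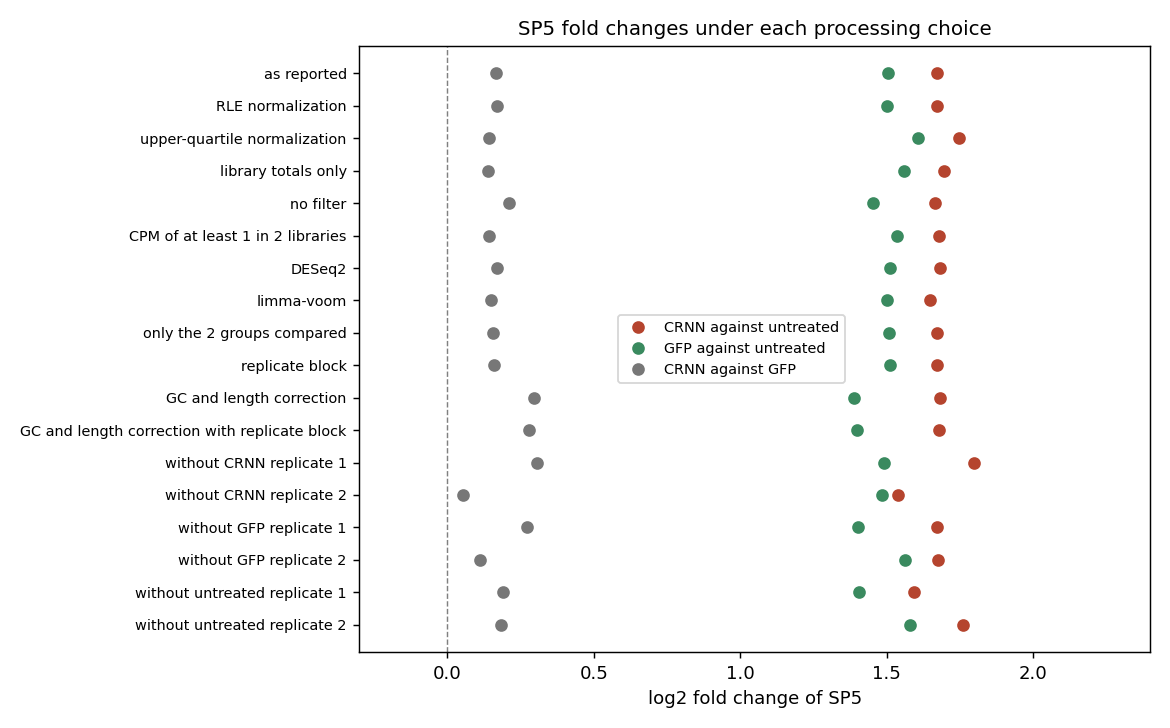
Log2 fold change of SP5 (x axis) as reported and under each alternative (y axis) for the 3 comparisons. Against untreated cells all points lie between 1.39 and 1.80, and between CRNN and GFP they lie between 0.054 and 0.31.

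The bases before the SP5 start are shown because SP5 was the member that differed most from untreated cells and because TCF and LEF proteins bind a short core, CTTTGA or CTTTGT, read on either strand (TCAAAG or ACAAAG on the other). RefSeq (GRCh38.p14) windows of 250 bases before the start were at hand for 4 of the 8 members. Capitals mark each match in the SP5 window, chr2:170715087-170715336 on the plus strand.
SP5: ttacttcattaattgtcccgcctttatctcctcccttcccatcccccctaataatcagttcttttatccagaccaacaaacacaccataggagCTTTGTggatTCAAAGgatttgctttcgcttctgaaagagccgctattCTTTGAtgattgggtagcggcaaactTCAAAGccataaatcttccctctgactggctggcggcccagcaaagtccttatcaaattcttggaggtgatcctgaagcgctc

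The SP5 window held 4 matches, whose first bases lie 157, 147, 109 and 83 bases before the start. Of 35116 RefSeq windows of the same length, 22.8% held at least 1 match, 4.11% at least 2 and 0.0570% at least 4. RNF43 has 2 starts in the table with 1 match each, and of the 2 starts of TCF7 one window had 2 matches and the other 0. The LEF1 window, chr4:108166302-108166551, had 0. It lies inside the GENCODE span of LEF1 given below, as do both TCF7 windows and the RNF43 window at chr17:58402722-58402971. These windows precede RefSeq starts within the genes, so they do not describe the bases before the outermost GENCODE start. A pair of these sites are shown for comparison with SP5, with the core in capitals. They are the RNF43 site at chr17:58417609-58417634 (minus strand) and a TCF7 site at chr5:134123559-134123584 (plus strand). The TCF7 site is the one nearer the RefSeq start of its window, a start that lies inside the gene.
RNF43: tccaccctcaCTTTGTcagcaggtag
TCF7: ccccactggaACAAAGgaggagagag

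These are matches of letters and were not measured as sites of binding. The 3 members with windows other than SP5 had log2 fold changes between -0.22 and 0.54 against untreated cells, as given below. Whether the number of matches bears on the fold changes was not tested.

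NKD1, which binds Dishevelled and dampens Wnt signalling (ENSG00000140807.4; chromosome 16, 50548396 to 50649249, plus strand), was counted at a similar depth to SP5 but in another pattern. It had 16 and 14 counts in CRNN, 20 and 13 in GFP, against 9 and 29 in untreated cells, or 0.725 and 0.624 CPM, 1.04 and 1.04 CPM, and 0.344 and 1.16 CPM. The lowest and the highest library were thus both untreated, and their Poisson intervals, 0.157 to 0.653 and 0.778 to 1.67 CPM, did not overlap. Its log2 fold change was -0.62 (SE 0.62) in CRNN against GFP, -0.15 (SE 0.61) in CRNN against untreated cells and 0.47 (SE 0.61) in GFP against untreated cells (edgeR, adjusted p = 0.999, 0.995 and 0.856). Against untreated cells 1 library set the direction: without untreated replicate 1 the values were -0.77 and -0.18, and without untreated replicate 2 they were 0.96 and 1.57. NKD1 passed the count filter in 5 of 6 libraries and the other tested members in all 6.

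RNF43 and ZNRF3 are related transmembrane ubiquitin ligases that remove Frizzled receptors from the cell surface, and R-spondins act by neutralising them. RNF43 (ENSG00000108375.8; chromosome 17, 58353676 to 58417595, minus strand) had 330 and 268 counts in CRNN, 218 and 172 in GFP, against 228 and 292 in untreated cells. Its levels were 14.96 and 11.9 CPM, 11.3 and 13.7 CPM, and 8.71 and 11.7 CPM. Both CRNN libraries lay above the untreated ones, by a narrow margin over untreated replicate 2, and CRNN and GFP overlapped. The log2 fold change was 0.40 in CRNN against untreated cells (SE 0.30, 95% interval -0.27 to 1.07; edgeR, adjusted p = 0.989), and 0.21 or 0.63 without untreated replicate 1 or 2. It was 0.29 (SE 0.30) in GFP against untreated cells, and 0.077 or 0.51 without untreated replicate 1 or 2. In CRNN against GFP it was 0.10 (SE 0.30), and -0.037 without CRNN replicate 1. The canonical RNF43 transcript has 4522 nt. In GENCODE a gene on the same strand, ENSG00000285897, shares 4326 nt of exon sequence with RNF43. That gene is not among the identifiers counted, so its reads cannot be told from those of RNF43, and its part in the RNF43 counts was not tested. TSPOAP1-AS1, which overlaps 345 nt of RNF43 exon on the opposite strand, had 2 to 16 counts a library.

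ZNRF3 (ENSG00000183579.11; chromosome 22, 28883572 to 29057488, plus strand) had the most counts of the members, 269 and 299 in CRNN, 300 and 126 in GFP, against 413 and 248 in untreated cells. Its levels were 12.2 and 13.3 CPM, 15.6 and 10.1 CPM, and 15.8 and 9.93 CPM. The replicates of both control groups spanned the CRNN libraries, so the group means were all close to 12.8 CPM. Its log2 fold changes were -0.011 (SE 0.34) in CRNN against GFP, -0.010 (SE 0.34) in CRNN against untreated cells and 0.00015 (SE 0.33) in GFP against untreated cells. The 95% interval of the first ran from -0.78 to 0.76, and the sign of all 3 turned with the scaling or with 1 library left out.

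TCF7 and LEF1 encode DNA-binding partners of beta-catenin and are themselves induced by it. TCF7 (ENSG00000081059.15; chromosome 5, 134114681 to 134151865, plus strand) had 198 and 150 counts in CRNN, 240 and 116 in GFP, against 198 and 186 in untreated cells. That is 8.98 and 6.69 CPM, 12.5 and 9.26 CPM, and 7.56 and 7.45 CPM. GFP libraries were the highest, above both CRNN and both untreated libraries. Of all genes, 38.1% did not overlap between CRNN and GFP and 31.6% between GFP and untreated libraries, and the share split in both was not computed. The TCF7 log2 fold change was -0.47 (SE 0.31) in CRNN against GFP and 0.54 (SE 0.31) in GFP against untreated cells (edgeR, adjusted p = 0.999 and 0.713), and these were -0.23 and 0.29 without GFP replicate 1. The 13 mitochondrial mRNAs given above were also highest on average in GFP, and their part in the TCF7 difference was not tested. In CRNN against untreated cells it had 0.061 (SE 0.31). TCF7 overlaps SKP1 on the opposite strand by 210 nt of exon. SKP1 had between 73.5 and 104 CPM, lowest in GFP, where TCF7 was highest.

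LEF1 (ENSG00000138795.5; chromosome 4, 108047545 to 108168956, minus strand) had 77 and 94 counts in CRNN, 56 and 45 in GFP, against 109 and 84 in untreated cells. Its levels of 3.49 and 4.19 CPM, 2.91 and 3.59 CPM, and 4.16 and 3.36 CPM overlapped between all groups. It varied least of the 6 tested members, with 1.44-fold between the lowest and the highest library, against 1.59-fold for ZNRF3, 1.72-fold for RNF43, 1.86-fold for TCF7, 3.38-fold for NKD1 and 3.67-fold for SP5. The log2 fold change was 0.25 (SE 0.35) in CRNN against GFP, 0.029 (SE 0.34) in CRNN against untreated cells and -0.22 (SE 0.35) in GFP against untreated cells. With 1 library left out, these ran from 0.11 (without GFP replicate 1) to 0.43 (without GFP replicate 2), from -0.12 to 0.19, and from -0.39 (without GFP replicate 2) to -0.076 (without GFP replicate 1). LEF1-AS1, which overlaps 279 nt of LEF1 exon on the opposite strand, had at most 3 counts a library.

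**Figure D3:**
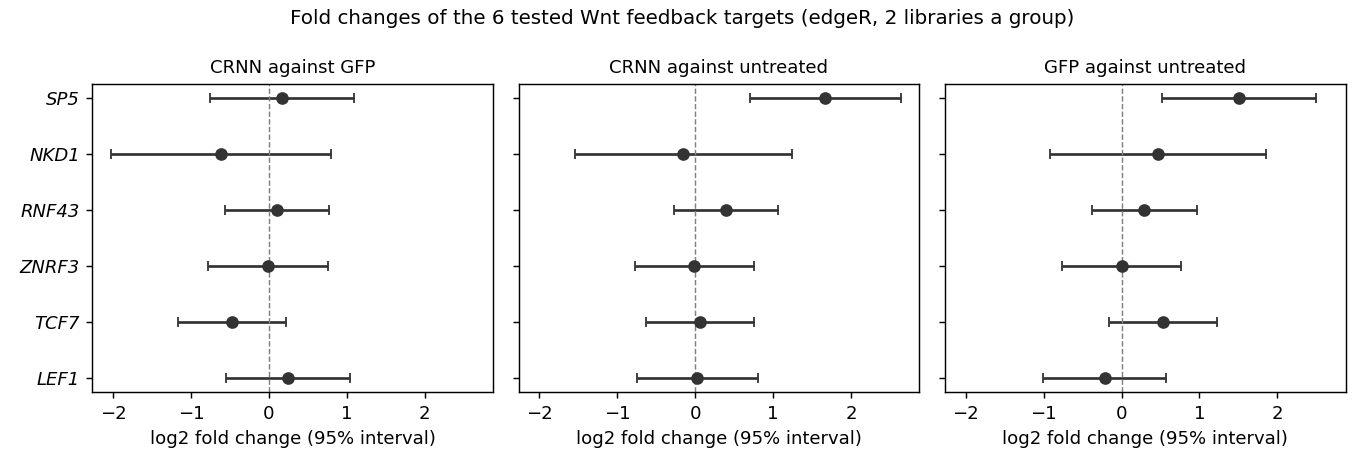
Log2 fold change (x axis, points) with its 95% interval (bars) for the 6 tested members (y axis) in the 3 comparisons, from edgeR on 2 libraries a group. The intervals of SP5 against untreated cells, 0.70 to 2.64 and 0.51 to 2.50, lie above 0, before any adjustment, and all others take in 0.

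Over the whole group, 0 of 6 tested members passed in CRNN against GFP, where 0.0183% of 16396 genes did. Against untreated cells 0 of 6 passed for CRNN (0.0061% of all genes) and 0 of 6 for GFP (0% of all genes). The only gene called in CRNN against untreated cells was CRNN itself, the introduced gene. The contrast of all transduced libraries called 0.0061% of genes and none of the 6. At an unadjusted p under 0.05 by edgeR there were 0 members in CRNN against GFP (4.39% of all genes), and 1, SP5, in each of the others, where 4.48%, 6.93% and 6.31% of all genes lay under it. DESeq2, limma-voom and the other alternatives also called 0 members. In CRNN against GFP, DESeq2 gave no adjusted p for SP5 and NKD1, so neither could be called there. Libraries that did not overlap were near the background too. They were seen for TCF7 and NKD1, both lower, in CRNN against GFP (38.1% of all genes), for SP5 and RNF43, both higher, in CRNN against untreated cells (37.1%), and for SP5 and TCF7, both higher, in GFP against untreated cells (31.6%). Among 4 transduced against 2 untreated libraries it was SP5 alone (11.2%). The median log2 fold change of the 6 was 0.047, 0.045 and 0.38 in the 3 comparisons, beside -0.0017, -0.0091 and -0.013 over all genes.

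Compared as RPKM, which is CPM divided by the length of the canonical transcript in kilobases, the mean levels over the 6 libraries ran from RNF43 at 2.67 and TCF7 at 2.66 to ZNRF3 at 1.86, LEF1 at 1.01, SP5 at 0.652, NKD1 at 0.0482 and AXIN2 at 0.0135. RNF43 (1.93 to 3.31 RPKM over the libraries), TCF7 (2.03 to 3.79) and ZNRF3 (1.44 to 2.30) overlapped, and so did LEF1 (0.814 to 1.17) and SP5 (0.261 to 0.958). LEF1 lay wholly below ZNRF3, and NKD1 wholly below SP5. The NKD1 transcript used here has 17039 nt, so its level per length would be higher if the counted exons were shorter. In bulk RNA, a low level in all cells and a higher level in a few cells cannot be told apart.

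The genes whose log2 CPM followed each member most closely over the 6 libraries, among 11402 named genes whose log2 CPM averaged 1 or more, were picked by Pearson's r (n = 6, which shares depth and scaling between all points). For SP5 these were DPY19L1P1 (r = 0.99), VWA1 (r = 0.98) and EYA2 (r = 0.98), and 14 genes had r above 0.95. TCF7 was followed by LINC02939 (r = 0.997), ABCA7 (r = 0.996) and DNHD1 (r = 0.99), LEF1 by CCDC50, CHMP2A and IFT57 (r = 0.99 each), and NKD1 by RAD54B (r = 0.99), NAA40 and SSH3 (r = 0.98 each). RNF43 was followed by PTGR2 (r = 0.997), TMEM143 (r = 0.98) and MIR378D2HG (r = 0.97), and ZNRF3 by GNB2, QSOX1 and AACS (r = 0.98 each). No gene stood in the list of more than 1 member. Among the members themselves, r ran from -0.84 between TCF7 and LEF1 to 0.66 between SP5 and RNF43.

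The rest of the pathway was read from lists chosen by role, 110 genes in all, of which 81 were tested. None passed in any of the 3 comparisons. At an unadjusted p under 0.05 by edgeR, 2 were higher and 6 lower in CRNN against GFP, 1 higher and 5 lower in CRNN against untreated cells, and 8 higher and 1 lower in GFP against untreated cells. These are 9.88%, 7.41% and 11.1% of the 81, beside 4.39%, 4.48% and 6.93% of all genes tested. The median log2 fold change of the 81 was -0.16, 0.098 and 0.17, beside -0.0017, -0.0091 and -0.013 over all genes.

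**Figure D4:**
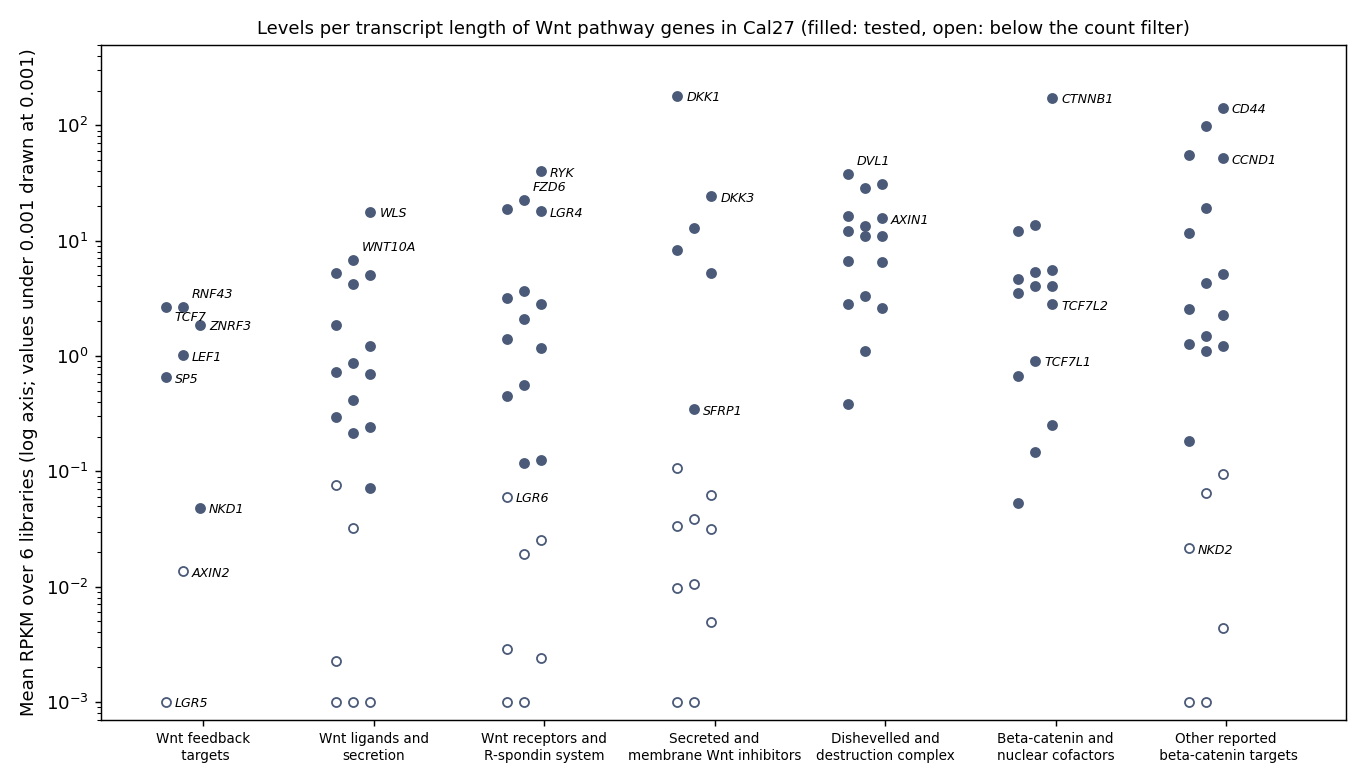
Mean RPKM over the 6 libraries (y axis, log scale, values under 0.001 drawn at 0.001) of the feedback targets and of the other Wnt pathway genes by role (x axis); filled points were tested and open points fell below the count filter. CTNNB1 at 172 RPKM and DKK1 at 180 RPKM lie far above the feedback targets, of which RNF43 is the highest at 2.67 RPKM.

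Of the 21 genes of Wnt ligands and secretion 15 were tested, led by WLS, the carrier that brings Wnt proteins to the surface, at 17.7 RPKM, and by the ligands WNT10A at 6.76, WNT7B at 5.26 and WNT7A at 4.23 RPKM. WNT7B had 12.9 and 9.41 CPM in CRNN, 42.7 and 15.9 CPM in GFP, and 26.1 and 17.6 CPM in untreated cells. The WNT7B log2 fold change was -1.40 (SE 0.46) in CRNN against GFP, or -0.50 without GFP replicate 1, and WNT9A had -1.11 (SE 0.47). Neither passed (edgeR, adjusted p = 0.999 for each).

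Of the 21 receptors and R-spondin genes, 14 were tested. The highest were RYK at 39.9 RPKM, FZD6 at 22.4, LRP5 at 18.8 and LGR4 at 17.9. LGR4, the R-spondin receptor of the same family as LGR5, had between 66.2 and 116 CPM, while LGR6 had 28 counts in all and was not tested. The 4 R-spondins were not tested either. The FZD7 log2 fold change was 0.97 (SE 0.36) in GFP against untreated cells, which was 0.45 without GFP replicate 1.

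Secreted and membrane inhibitors were dominated by DKK1, which blocks LRP5 and LRP6 and is itself a reported beta-catenin target, at 180 RPKM. DKK1 had 183 and 200 CPM in CRNN, 379 and 161 CPM in GFP, and 800 and 222 CPM in untreated cells. Its log2 fold change in CRNN against untreated cells was -1.42 (SE 0.59), or -0.21 without untreated replicate 1. SFRP1, a secreted Frizzled-related inhibitor, had 0.861 and 0.669 CPM in CRNN, 2.86 and 2.71 CPM in GFP, and 1.11 and 1.00 CPM in untreated cells. Both GFP libraries lay above the 4 others. Libraries did not overlap for 38.1% of all genes in CRNN against GFP and for 31.6% in GFP against untreated cells, and the share split in both was not computed. The SFRP1 log2 fold change was -1.86 (SE 0.42) in CRNN against GFP and 1.40 (SE 0.41) in GFP against untreated cells (edgeR, adjusted p = 0.999 and 0.711). NOTUM and APCDD1, 2 other feedback inhibitors that Wnt induces in many tissues, had 8 and 27 counts in all and were not tested.

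All 16 genes of the Dishevelled and destruction complex list and all 15 of beta-catenin and its cofactors were tested. AXIN1, the constitutive partner of AXIN2, stood at 15.7 RPKM, with 112 CPM in untreated replicate 1 and between 33.8 and 62.6 CPM elsewhere. Its log2 fold change in CRNN against untreated cells was -0.84, or -0.13 without untreated replicate 1. CTNNB1, which encodes beta-catenin, stood at 172 RPKM with 1030 CPM in untreated replicate 1 and between 512 and 623 CPM elsewhere. Among the cofactors, BCL9L, which tethers beta-catenin to PYGO proteins, had 23.8 and 16.3 CPM in CRNN, 47.4 and 36.8 CPM in GFP, and 20.3 and 15.9 CPM in untreated cells. Its log2 fold change was -1.07 (SE 0.30) in CRNN against GFP and 1.22 (SE 0.30) in GFP against untreated cells, and -0.74 and 0.91 with the offsets for GC content and length. CREBBP, a histone acetyltransferase that beta-catenin recruits, had -0.72 (SE 0.27) and 1.24 (SE 0.27), or -0.43 and 0.94 with those offsets. EP300, TLE3 and TCF7L2 had 0.80 (SE 0.27), 1.21 (SE 0.39) and 1.16 (SE 0.39) in GFP against untreated cells. Of the 15 cofactor genes, 10 had a positive log2 fold change in that comparison, and HHEX was among the others at -0.83. Without untreated replicate 1 the values for TLE3 and TCF7L2 were 0.73 and 0.66. The mitochondrial mRNAs were higher in GFP as well, and their part in these cofactor differences was not tested. None of these passed (edgeR, smallest adjusted p = 0.711). The DNA-binding partner TCF7L2, at 2.80 RPKM, stood beside 2.66 RPKM for TCF7, and TCF7L1 was at 0.906 RPKM.

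Of 21 other reported beta-catenin targets 15 were tested, among them CD44 at 142 RPKM, MYC at 55.4 and CCND1 at 51.8. CCND1, the G1 cyclin, had 134 and 136 CPM in CRNN, 328 and 183 CPM in GFP, and 348 and 188 CPM in untreated cells, with a log2 fold change of -0.92 (SE 0.39) against GFP and -0.99 (SE 0.39) against untreated cells. The first was -0.43 without GFP replicate 1 and the second -0.48 without untreated replicate 1. Both CRNN libraries lay below all 4 controls. Libraries did not overlap for 38.1% of all genes in CRNN against GFP and for 37.1% in CRNN against untreated cells. The share of genes split in both was not computed. MYC had 595 CPM in untreated replicate 1 and between 103 and 148 CPM elsewhere, and FOSL1 had 636 CPM there, 241 CPM in GFP replicate 1 and between 30.2 and 38.4 CPM elsewhere. Their log2 fold changes in CRNN against untreated cells, -1.41 (SE 0.56) and -3.27 (SE 1.21), were 0.027 and -0.11 without untreated replicate 1. ASCL2, the intestinal stem cell factor, named here after its values were seen, had 2.99 and 2.41 CPM in CRNN, 1.71 and 1.76 CPM in GFP, and 0.420 and 1.56 CPM in untreated cells. Its log2 fold change of 1.45 (SE 0.57) in CRNN against untreated cells was 0.79 without untreated replicate 1. SOX9, also named after its values were seen, was the remaining gene lower at an unadjusted p under 0.05 in that comparison, at -2.32 (SE 0.92). It had 19.5 and 17.4 CPM in CRNN against 171 and 12.9 CPM in untreated cells, and its value was 0.51 without untreated replicate 1. MMP7, a secreted protease, had 46 and 90 counts in CRNN and 3 and 12 in GFP. Its log2 fold change in CRNN against GFP was 2.56 (SE 0.94), or 1.67 without GFP replicate 1. Untreated replicates 1 and 2 held 60 and 10 MMP7 counts. At 2.29 CPM, untreated replicate 1 lay above CRNN replicate 1, which was at 2.09 CPM. CRNN against untreated cells gave 1.17 (SE 0.82) for MMP7, or 2.91 without untreated replicate 1. DKK3, a Dickkopf family member from the list of inhibitors, was at 0.61 (SE 0.27) in CRNN against GFP and at 0.24 in CRNN against untreated cells. It had 67.7 and 78.7 CPM in CRNN, 42.7 and 53.2 CPM in GFP, and 68.9 and 55.2 CPM in untreated cells. NKD2, the paralog of NKD1, had 5 counts in all. None passed over all genes (edgeR).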

How the data were processed

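RNA was measured by stranded paired-end sequencing of total RNA in 6 libraries, 2 in each of 3 groups assigned from the treatment label. The authors deposited raw counts per gene, whole numbers with no normalization. Tools listed in the submitters' processing notes are HTSeq 0.6.1, STAR 2.6, edgeR, bcl2fastq and FastQC 0.11.7, beside the builds hg19, GRCh37 and GRCh38, with no role for each. The annotation and strand setting are not given in the sources used here, so reads of overlapping or antisense genes may be mixed.

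Names, coordinates, canonical transcript lengths and GC content came from GENCODE 44 (GRCh38) by identifier without version, which named 51996 of 57820. Genes passed edgeR's filterByExpr (minimum count 10, minimum total 15), leaving 16396 with 99.9% of counts. One edgeR 4.0.16 model (R 4.3.3) held all 6 libraries (TMM, quasi-likelihood F test, two-sided, genome-wide Benjamini-Hochberg adjustment, threshold 0.05). SE is the size of the log2 fold change over the square root of F. Exact Poisson intervals and floors of 3 counts cover counting error only. The fit was tested on simulated counts. Changes were planted there only in genes whose log2 CPM averaged 1 or more, a level that SP5 and NKD1 did not reach.

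Alternatives were other scalings and filters, DESeq2 1.42.0, limma-voom (limma 3.58.1), 2-group fits, a replicate block, a GC and length correction (splines of 4 degrees of freedom), and each library left out. The members and lists were chosen with earlier results of these data known. Named were all members, CRNN, the 3 genes most alike, and some genes of each list. The latter were picked by small p, by level, by role or after their values were seen. Not every gene with a small p in its list was named.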

Additional observations from a re-analysis of the deposited data

How the results depend on the processing

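No alternative called a member, though DESeq2 gave no adjusted p for SP5 and NKD1 in CRNN against GFP. Of the 306 alternative values of the members, 272 kept their sign and 34 turned it, 26 of these for ZNRF3. ZNRF3 in CRNN against GFP was 0.030 without a filter, 0.0042 with limma-voom, 0.040 with the replicate block, 0.15 with the GC and length correction and 0.19 with that and the replicate block, and -0.26 to 0.35 with libraries left out. In CRNN against untreated it was 0.084 with upper-quartile scaling, 0.029 with library totals, 0.026 with limma-voom, 0.040 with the replicate block, 0.0084 with the GC and length correction and 0.046 with both, and -0.30 to 0.37 with libraries left out. In GFP against untreated it was -0.0045 with RLE, -0.052 without a filter, -0.0044 with DESeq2, -0.14 with the GC and length correction, with and without the replicate block, and -0.36 to 0.35 with libraries left out. NKD1 in CRNN against untreated was 0.098 with limma-voom and -0.77 to 0.96 with libraries left out, and -0.18 to 1.57 in GFP against untreated. With libraries left out RNF43 in CRNN against GFP ran from -0.037 to 0.27, and TCF7 and LEF1 in CRNN against untreated from -0.15 to 0.24 and -0.12 to 0.19. Genes called, for CRNN against GFP and then CRNN and GFP each against untreated, were 34, 152 and 195 without a filter and 22, 7 and 29 with DESeq2. In CRNN against GFP they were 13 with only those groups and 1 with the GC and length correction, with and without the replicate block. With libraries left out they ran from 0 to 15, 1 to 957 and 0 to 966, the highest of each without untreated replicate 2. The cause of these changes was not tested.

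The replicate numbers were not taken to pair libraries: the deviation of replicate 1 from replicate 2 over 11729 genes had r = 0.26 for CRNN with GFP, -0.071 for CRNN with untreated and 0.19 for GFP with untreated. SP5 and NKD1 had at most 44 and 29 counts a library, which limits their precision, and AXIN2 and LGR5 allow no comparison at this depth. The further contrast of all transduced libraries was run with 14 of the alternatives.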
